A study of Mus musculus with 16 samples.

Results

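Tubulin messages of the mouse heart were followed through pressure overload in 10 genes: the alpha-tubulin genes Tuba1a, Tuba1b, Tuba1c, Tuba4a and Tuba8, and the beta-tubulin genes Tubb2a, Tubb2b, Tubb4b, Tubb5 and Tubb6. They were taken by gene symbol from the 55487 gene rows of a count table, and all 10 were among the 18275 genes expressed highly enough to be tested. The 16 libraries, 4 per group, each came from the apex of the heart of a separate male mouse 4 weeks after surgery. The surgery was transverse aortic constriction (TAC), which narrows the aortic arch so that the left ventricle pumps against a raised pressure, or a sham operation. Control mice (Ctrl) were wild type, and knockout mice (KO) lacked Cardinal (Gm12295, ENSMUSG00000085162), a long noncoding RNA of the heart. Strain and age were not given in the sources used here. The groups are called Ctrl sham, Ctrl TAC, KO sham and KO TAC.

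The libraries held between 53169437 and 79404714 counts. Levels are given in CPM, counts scaled to a common library size after TMM scaling, a correction for differences in composition between libraries. Cardinal was between 0.297 and 0.553 CPM in KO sham against 3.24 to 3.86 CPM in Ctrl sham, and between 0.276 and 0.371 CPM in KO TAC 1 to 3 against 2.69 to 8.02 CPM in Ctrl TAC. The library labelled KO TAC 4 went against its label, with 4.55 CPM of Cardinal, above every Ctrl sham library. The KO TAC comparisons of the tubulin genes and of the named microtubule genes are therefore also given without it. Ctrl TAC 2 also stood apart: its summed CPM of 8 neuron and Schwann cell markers was 20.1, against 3.96 to 10.2 in all other libraries. The summed cardiomyocyte markers, 8 genes with none at 0, ran from 49900 to 57800 CPM in Ctrl sham and from 37600 to 39300 CPM in KO TAC.

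Microtubules are hollow tubes built from dimers of 1 alpha-tubulin and 1 beta-tubulin. Several genes encode each partner, and the proteins differ mainly in their acidic carboxy-terminal tails, which lie on the outside of the tube and carry most of its modifications. Most alpha-tubulins end in a tyrosine that vasohibins remove from the polymer and tubulin tyrosine ligase returns to the free dimer. In cardiomyocytes, detyrosinated microtubules couple to the sarcomere and add stiffness to the contracting cell, and a denser and more detyrosinated network is a known feature of hypertrophied and failing hearts.

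The last 60 bases of the coding sequence show where the isotypes differ, and they are printed for 7 members, with the last codon before the stop codon in capitals. The sequences are from the GRCm38 reference and run 5′ to 3′ on the coding strand, each within 1 exon. The alpha-tubulin ends are at chr15:99037950-99038009 (Tuba1c, plus strand), chr1:75215622-75215681 (Tuba4a, minus) and chr6:121226020-121226079 (Tuba8, plus). The beta-tubulin ends are at chr13:34074468-34074527 (Tubb2a, minus), chr13:34127471-34127530 (Tubb2b, minus), chr2:25222308-25222367 (Tubb4b, minus) and chr17:35834982-35835041 (Tubb5, minus).
Tuba1c: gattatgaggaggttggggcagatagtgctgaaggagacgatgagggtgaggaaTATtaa
Tuba4a: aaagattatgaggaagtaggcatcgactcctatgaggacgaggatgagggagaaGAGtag
Tuba8: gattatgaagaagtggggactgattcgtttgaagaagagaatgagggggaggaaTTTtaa
Tubb2a: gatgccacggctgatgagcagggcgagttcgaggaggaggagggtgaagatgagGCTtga
Tubb2b: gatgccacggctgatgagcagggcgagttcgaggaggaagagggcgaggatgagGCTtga
Tubb4b: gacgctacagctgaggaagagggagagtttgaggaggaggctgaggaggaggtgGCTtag
Tubb5: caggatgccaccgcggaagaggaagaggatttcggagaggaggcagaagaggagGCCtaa
The capitals encode tyrosine in Tuba1c, glutamate in Tuba4a, phenylalanine in Tuba8 and alanine in the beta-tubulins. Tuba4a therefore encodes an alpha-tubulin already without the final tyrosine. Tubb2a and Tubb2b differed at 3 of the 60 bases, G39A, T45C and A48G, counted from 1 at the first printed base with the base of Tubb2a first.

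These near-identical sequences also limit what short reads can separate. The coding sequences of Tuba1a and Tuba1b were 98.3% identical, those of Tuba1b and Tuba1c 97.9%, and those of Tubb2a and Tubb2b 96.5%, whereas Tuba1a and Tuba4a shared 84.7%. Of all 150-base windows of its longest transcript, 54.7% for Tuba1a, 57.9% for Tuba1b and 46.7% for Tuba1c occurred exactly in another gene. The shares were 27.9% for Tubb2a, 20.1% for Tubb2b and 16.8% for Tubb4b, and 0% for Tuba4a, Tuba8, Tubb5 and Tubb6. How reads with several matches were counted was not given in the sources used here, so the split of counts among the genes with shared windows, and whether such reads were counted at all, is uncertain. Several members also overlap other genes. On the same strand, Gm49450 shares 473 exon bases with Tuba1a and 426 with Tuba1b. On the opposite strand, Tuba4a overlaps Stk16 over 1379 bases, Tuba8 overlaps Gm15856 over 368, Tubb4b Fam166a over 121 and Tuba1b Gm41396 over 87. Whether strand was used in counting, and how reads in such overlaps were counted, was not given. The mean of Stk16 was 21.2 CPM in unloaded Ctrl hearts and 21.8 CPM in loaded KO hearts.

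In the unloaded heart Tuba4a had the highest level in the deposited counts. The order places it, with no shared windows, beside genes such as Tuba1b that would read too low if reads with several matches were dropped. Per kilobase of exon, the scale on which genes of different length were compared, its mean in Ctrl sham was 104 CPM. Tubb4b, a beta-tubulin found in most tissues, followed at 62.7 CPM per kilobase, Tuba1b at 47.9 and Tuba8, an alpha-tubulin enriched in striated muscle and testis, at 45.9. Tuba1a (29.2), Tubb5 (20.3), Tuba1c (13.2), Tubb2a (13.1), Tubb6 (8.09) and Tubb2b (2.40) made up the rest of the order in CPM per kilobase. Tuba1b and Tuba8 overlapped, as did Tuba1c with Tubb2a and Tubb2a with Tubb6, whereas every other pair of neighbours was separated in all 4 libraries. In KO TAC, Tubb4b (83.8 CPM per kilobase), Tuba4a (77.9) and Tuba1b (72.2) came first, with overlapping ranges between neighbours.

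**Figure D1:**
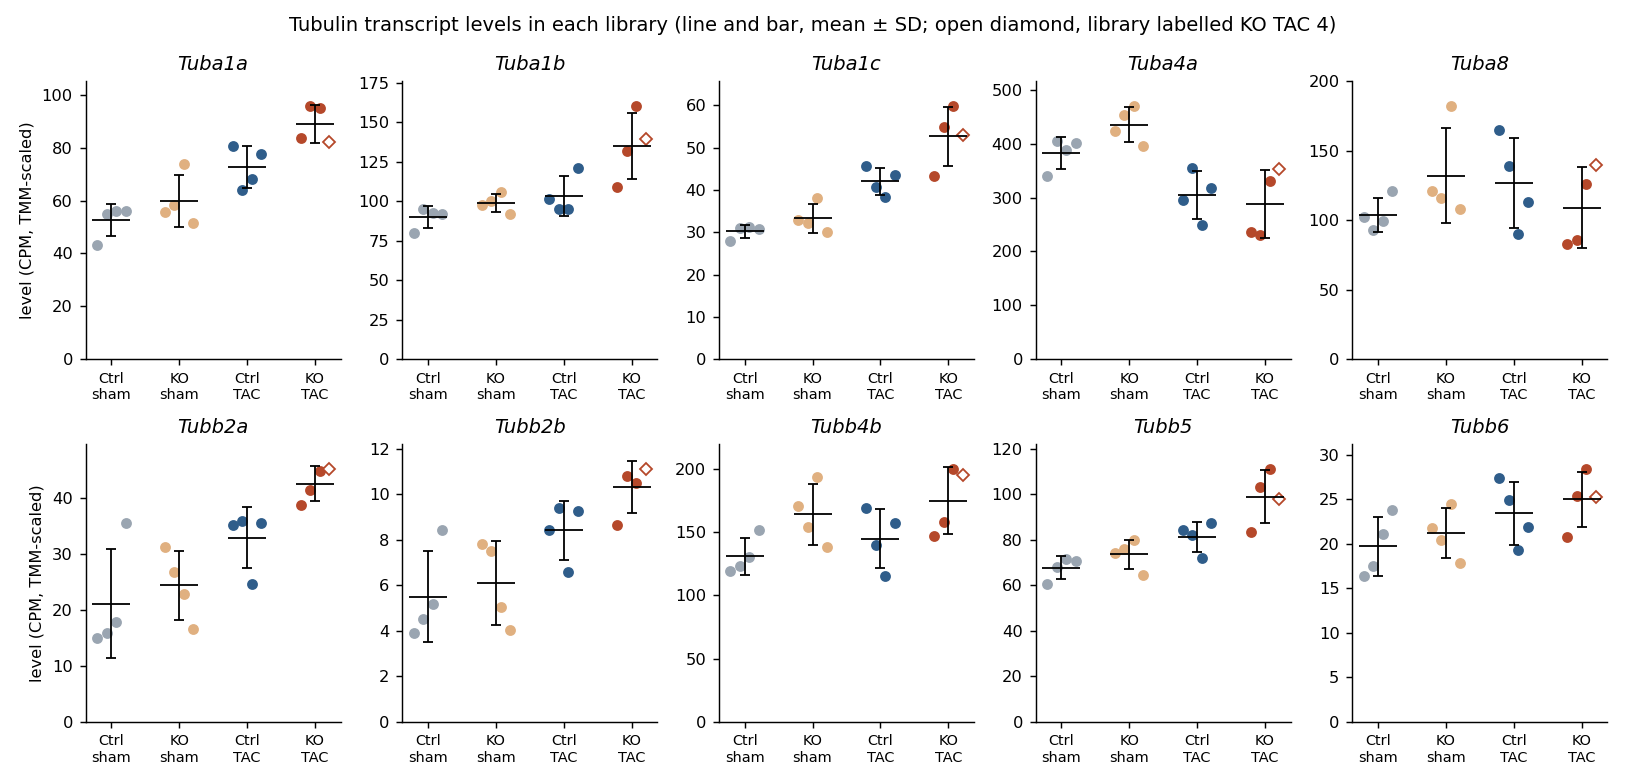
Level (CPM, TMM-scaled) of the 10 tubulin genes, 1 panel per gene with its own axis from 0, in the 4 groups of 4 libraries. Each point is a library, lines and bars give the mean and SD, and the open diamond is the library labelled KO TAC 4. All Ctrl TAC points lie above all Ctrl sham points for Tuba1a, Tuba1c and Tubb5, and all KO TAC points lie below all KO sham points for Tuba4a.

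To ask how control hearts responded to load, Ctrl TAC was compared with Ctrl sham. Tuba1a, Tuba1c and Tubb5 rose, by 1.38-fold, 1.39-fold and 1.20-fold, and these 3 of 10 were the only tubulin genes called at an adjusted p under 0.05 in edgeR's quasi-likelihood test, against 20.0% of all genes tested (10.4% higher and 9.60% lower). The same 3 genes were the ones whose TAC libraries all lay above their sham libraries, and no member lay wholly below, against 20.5% of all genes tested without overlap (10.5% higher and 9.97% lower). The median log2 difference over the 10 genes was 0.28, beside 0.00426 over all genes tested. In whole tissue, fewer cells of a type and less RNA per cell cannot be told apart.

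The Tuba1 genes encode the alpha-tubulins of most dividing and growing cells. Tuba1a measured 43.3, 55.0, 55.9 and 56.1 CPM in Ctrl sham 1 to 4 and 80.7, 64.0, 68.0 and 77.7 CPM in Ctrl TAC 1 to 4. The groups did not overlap, and the log2 difference was 0.47 (SE 0.11, adjusted p = 0.00642). It remained called without each of the 16 libraries in turn, with adjusted p from 0.0014 to 0.0242. Tuba1c measured 28.0, 30.9, 31.2 and 30.7 CPM in Ctrl sham and 45.7, 40.8, 38.4 and 43.5 CPM in Ctrl TAC. Every TAC library was above every sham library, with a log2 difference of 0.48 (SE 0.09, adjusted p = 0.000824), and it too remained called without each library in turn. Tuba1b, the most abundant of the trio, measured 79.5, 94.8, 92.6 and 91.9 CPM in Ctrl sham and 101, 95.1, 94.7 and 121 CPM in Ctrl TAC. Ctrl TAC 3 lay just below the highest sham library, and the log2 difference of 0.20 (SE 0.10, adjusted p = 0.185) did not pass the test.

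The muscle-enriched alpha-tubulins gave no call in control hearts. Tuba4a measured 341, 405, 388 and 402 CPM in Ctrl sham and 296, 356, 250 and 318 CPM in Ctrl TAC. Of the 4 TAC libraries 3 were below all sham libraries, Ctrl TAC 2 was not, and the log2 difference was -0.33 (SE 0.13, adjusted p = 0.0971). With both Ctrl TAC 2 and the library labelled KO TAC 4 left out, the difference was -0.41 with an adjusted p of 0.0268, and DESeq2 gave an adjusted p of 0.0457. Tuba8 measured 102, 93.0, 99.3 and 121 CPM in Ctrl sham and 165, 139, 89.9 and 113 CPM in Ctrl TAC. Its TAC libraries lay on both sides of the sham libraries (log2 difference 0.29, SE 0.22, adjusted p = 0.425).

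Among the beta-tubulins, Tubb5, which most cells express and which is high in dividing cells, was the member called. It measured 60.5, 67.9, 71.6 and 70.5 CPM in Ctrl sham and 84.1, 81.9, 72.0 and 87.3 CPM in Ctrl TAC. The groups were separated by a narrow gap, between Ctrl sham 3 and Ctrl TAC 3, and the log2 difference was 0.27 (SE 0.09, adjusted p = 0.0353). The call was lost in 5 of 16 fits that left out 1 library, at adjusted p of 0.12 without Ctrl sham 1, 0.0656 without Ctrl sham 2, 0.0808 without Ctrl TAC 1, 0.0624 without Ctrl TAC 2 and 0.108 without Ctrl TAC 4. Tubb4b, the most abundant beta-tubulin message, measured 119, 123, 130 and 152 CPM in Ctrl sham and 169, 140, 115 and 157 CPM in Ctrl TAC. The groups overlapped widely (log2 difference 0.15, SE 0.13, adjusted p = 0.492).

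Tubb2a and Tubb2b, neighbouring genes for beta-tubulins best known from neurons, had the largest differences in control hearts and the widest spread within Ctrl sham. Tubb2a measured 15.0, 15.8, 17.9 and 35.5 CPM in Ctrl sham and 35.1, 35.9, 24.7 and 35.6 CPM in Ctrl TAC. Ctrl sham 4 was as high as the TAC libraries, and the log2 difference of 0.65 (SE 0.26, adjusted p = 0.103) was not called. Without Ctrl sham 4 the adjusted p was 0.00145. Tubb2b measured 3.90, 4.53, 5.15 and 8.43 CPM in Ctrl sham and 8.41, 9.38, 6.58 and 9.27 CPM in Ctrl TAC. Ctrl sham 4 was again the highest of its group, and the log2 difference of 0.62 (SE 0.23) had an adjusted p of 0.0771, or 0.00583 without that library. Tubb6, a beta-tubulin linked to injured and regenerating muscle, measured 16.4, 17.5, 21.1 and 23.8 CPM in Ctrl sham and 27.4, 24.9, 19.3 and 21.9 CPM in Ctrl TAC (log2 difference 0.25, SE 0.13, adjusted p = 0.220). Its groups overlapped.

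Cell type markers moved with the same comparison. Of 8 cardiomyocyte markers 5 fell, and the sum of the 8 was between 43300 and 47400 CPM in Ctrl TAC against 49900 to 57800 CPM in Ctrl sham. Myh6 weighed most in this sum, with means of 24600 CPM in Ctrl sham, 20000 in Ctrl TAC, 23700 in KO sham and 15300 in KO TAC. Actc1 and Nkx2-5 had higher means in TAC than in sham in both genotypes, at 7150 and 7950 CPM and at 50.7 and 54.9 CPM in control hearts. Of 8 fibroblast markers 5 rose, and their sum went from 579 to 706 CPM in Ctrl sham to between 1120 and 1590 CPM in Ctrl TAC. The means moved most for the collagen genes and Postn, as for Col3a1 (99.7 and 320 CPM), Postn (30.3 and 179) and Col1a1 (48.8 and 155). They moved less for Dcn (299 and 352), Pdgfra (28.4 and 33.7) and Tcf21 (4.71 and 5.99). Of 7 macrophage markers 4 rose, from a sum of 112 to 145 CPM to one of 158 to 180 CPM. None of these markers was at 0 in all libraries, and their part in the tubulin results was not tested.

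The same question was asked of knockout hearts by comparing KO TAC with KO sham. Tuba1a, Tuba1b, Tuba1c, Tubb2a, Tubb2b and Tubb5 rose, by 1.35-fold to 1.74-fold, and Tuba4a fell to 0.661 of its sham level. These were 7 of 10 genes called, against 34.3% of all genes tested, with 6 of 10 higher against 17.8% and 1 of 10 lower against 16.5%. The same 7 had no overlap between groups, against 34.6% of all genes tested (18.0% higher and 16.6% lower). The median log2 difference over the 10 genes was 0.44, beside -0.0039 over all genes. Without the library labelled KO TAC 4, 6 genes were called, 5 higher and 1 lower, against 31.0% of all genes tested, with Tubb2a no longer among them.

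Tuba1a measured 55.7, 58.3, 74.0 and 51.7 CPM in KO sham 1 to 4 and 83.6, 95.7, 95.0 and 82.2 CPM in KO TAC 1 to 4 (log2 difference 0.57, SE 0.11, adjusted p = 0.000676). Tuba1b measured 97.6, 99.9, 106 and 92.0 CPM in KO sham and 109, 132, 160 and 139 CPM in KO TAC (log2 difference 0.45, SE 0.10, adjusted p = 0.00189). Tuba1c measured 32.9, 32.3, 38.2 and 30.0 CPM in KO sham and 43.3, 55.0, 59.8 and 52.9 CPM in KO TAC (log2 difference 0.66, SE 0.09, adjusted p = 1.45e-05). In all 3 genes every TAC library was above every sham library, the library labelled KO TAC 4 included. Without it the log2 differences were 0.61, 0.44 and 0.66, all called. Each stayed called without any 1 of the 16 libraries.

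Tuba4a went the other way. It measured 424, 454, 470 and 397 CPM in KO sham and 236, 231, 332 and 353 CPM in KO TAC, so that all loaded libraries lay below all unloaded ones. KO TAC 1 and 2 were the lowest of the 16 libraries. The log2 difference was -0.60 (SE 0.13, adjusted p = 0.00258), and -0.71 (adjusted p = 0.00065) without the library labelled KO TAC 4. Tuba8 measured 121, 116, 182 and 108 CPM in KO sham and 82.6, 85.6, 126 and 140 CPM in KO TAC. Its groups overlapped, with KO TAC 1 and 2 again the lowest (log2 difference -0.28, SE 0.22, adjusted p = 0.383).

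Tubb5 measured 73.9, 75.8, 79.8 and 64.4 CPM in KO sham and 83.3, 103, 111 and 97.7 CPM in KO TAC. All TAC libraries were higher, with a log2 difference of 0.43 (SE 0.09, adjusted p = 0.000783), and of 0.43 (adjusted p = 0.00226) without the library labelled KO TAC 4. Tubb2a measured 31.3, 26.8, 22.9 and 16.6 CPM in KO sham and 38.8, 41.5, 44.8 and 45.2 CPM in KO TAC, a log2 difference of 0.80 (SE 0.26, adjusted p = 0.0286). The groups did not overlap, but the call was lost without the library labelled KO TAC 4 (log2 difference 0.77, adjusted p = 0.0595), KO TAC 3 (0.0617), KO sham 3 (0.0652) or KO sham 4 (0.0814). Tubb2b measured 7.79, 7.52, 5.03 and 4.02 CPM in KO sham and 8.63, 10.8, 10.5 and 11.1 CPM in KO TAC, a log2 difference of 0.75 (SE 0.23, adjusted p = 0.0203). Its groups were separate, and without the library labelled KO TAC 4 the adjusted p was 0.0483. The call was lost without KO sham 3 (0.0592) or KO sham 4 (0.0603).

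Tubb4b and Tubb6 did not pass the test in knockout hearts. Tubb4b measured 171, 154, 194 and 138 CPM in KO sham and 147, 158, 200 and 195 CPM in KO TAC (log2 difference 0.09, SE 0.13, adjusted p = 0.651). Tubb6 measured 21.8, 20.4, 24.5 and 17.8 CPM in KO sham and 20.8, 25.4, 28.4 and 25.3 CPM in KO TAC (log2 difference 0.24, SE 0.13, adjusted p = 0.186). In Tubb4b the sham and TAC libraries were interleaved, whereas in Tubb6 all TAC libraries but KO TAC 1 lay above all sham libraries. Leaving out the library labelled KO TAC 4 gave 0.04 for Tubb4b, 0.23 for Tubb6 and -0.42 for Tuba8, none of them called. Beside these values, the fibroblast marker sum was 610 to 645 CPM in KO sham and 1830 to 2000 CPM in KO TAC, with 8 of 8 markers higher. The means were 28.0 and 413 CPM for Postn, against 28.1 and 34.8 CPM for Pdgfra. The cardiomyocyte sum was 51000 to 56100 CPM and then 37600 to 39300 CPM, with 6 of 8 markers lower. All 7 macrophage markers rose, and 6 of 7 markers of cycling cells rose while 1 fell. Their part in the tubulin results was not tested.

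To see what the knockout changed in the loaded heart, KO TAC was compared with Ctrl TAC. Tuba1b was the 1 tubulin gene of 10 called, 1.31-fold higher in KO TAC (log2 difference 0.39, SE 0.10, adjusted p = 0.0440), against 2.68% of all genes tested (1.36% higher and 1.32% lower). Its levels were 101, 95.1, 94.7 and 121 CPM in Ctrl TAC and 109, 132, 160 and 139 CPM in KO TAC, and KO TAC 1 lay below Ctrl TAC 4. Leaving out the library labelled KO TAC 4 gave a log2 difference of 0.38 with an adjusted p of 0.0849. In that fit no tubulin gene was called by edgeR, against 2.37% of all genes tested. An unadjusted p under 0.05 was found in 4 of 10 tubulin genes and in 3380 of all 18494 genes tested there. Tuba1b was called in 5 of the 16 fits that left out 1 library. It was lost on leaving out Ctrl TAC 1 (adjusted p = 0.0738), Ctrl TAC 2 (0.154), Ctrl TAC 3 (0.108), KO TAC 2 (0.0902) or KO TAC 3 (0.136), and on leaving out Ctrl sham 3 (0.0593), Ctrl sham 4 (0.0556), KO sham 1 (0.0601), KO sham 2 (0.0596) or KO sham 4 (0.0510). With a term for animal numbers starting with 25, which 3 of the 4 Ctrl TAC libraries and 1 KO TAC library carry, its adjusted p was 0.136.

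The other tubulin genes differed less between the loaded groups, or varied more. Tuba1a had all KO TAC libraries above all Ctrl TAC libraries, with a log2 difference of 0.30 (SE 0.11, adjusted p = 0.154). Tubb2a was separated in the same way, at 0.37 (SE 0.26, adjusted p = 0.474). These 2 of 10 without overlap, both higher, compare with 10.5% of all genes tested (5.55% higher and 4.99% lower). Tuba1c, at 0.33 (SE 0.09, adjusted p = 0.0532), and Tubb5, at 0.28 (SE 0.09, adjusted p = 0.0816), each had 1 or more overlapping libraries and were called by DESeq2, at adjusted p of 0.0143 and 0.0353, a test that called 6.47% of all genes. Without the library labelled KO TAC 4 the edgeR values were 0.33 for Tuba1a, 0.34 for Tubb2a, 0.32 for Tuba1c and 0.29 for Tubb5, none of them called. For the remaining genes the log2 difference ran from -0.22 in Tuba8 to 0.29 in Tubb2b, and from -0.37 in Tuba8 to 0.25 in Tubb2b when the library labelled KO TAC 4 was left out. Fibroblast markers differed here too, with 2 of 8 higher and a sum of 1830 to 2000 CPM against 1120 to 1590 CPM, and 3 of 7 cycling cell markers were higher. Of 8 cardiomyocyte markers 2 were lower, and their sum was 37600 to 39300 CPM in KO TAC against 43300 to 47400 CPM in Ctrl TAC, without overlap. Their part was not tested.

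In unloaded hearts, KO sham was set against Ctrl sham. No tubulin gene was called by edgeR or DESeq2, and 1 of 10 had an unadjusted p under 0.05. Of all genes tested edgeR called 0.00%, with 479 at an unadjusted p under 0.05, and DESeq2 called 3. The edgeR fit thus also missed Cardinal itself, although its groups did not overlap and its log2 difference was -2.92. Without the library labelled KO TAC 4, edgeR called Cardinal (adjusted p = 0.00258). All 10 tubulin genes had log2 differences above 0, between 0.10 in Tubb6 and 0.34 in Tuba8. The groups overlapped in every tubulin gene, whereas 1.78% of all genes did not overlap (0.941% higher and 0.837% lower). For Tubb4b the unadjusted 95% interval on the log2 scale, 0.04 to 0.61, lay above 0, but the adjusted test was not passed. The difference between the genotypes in their response to load, tested as an interaction, was called for none of the 10 genes by edgeR or DESeq2, and 0 had an unadjusted p under 0.05. Over all genes edgeR called 0.0109%, or 2 genes, DESeq2 called 132, and 2024 had an unadjusted p under 0.05. The largest in each direction were -0.56 for Tuba8 (interval -1.25 to 0.12, adjusted p = 0.545) and 0.26 for Tuba1b (interval -0.04 to 0.55, adjusted p = 0.525). When the library labelled KO TAC 4 was left out they were -0.71 and 0.24, still not called. In that fit Tuba8 and Tuba4a (-0.38) had an unadjusted p under 0.05, as had 2122 of all 18494 genes tested. That 7 genes were called in knockout hearts and 3 in control hearts is therefore no test of a difference between the genotypes.

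**Figure D2:**
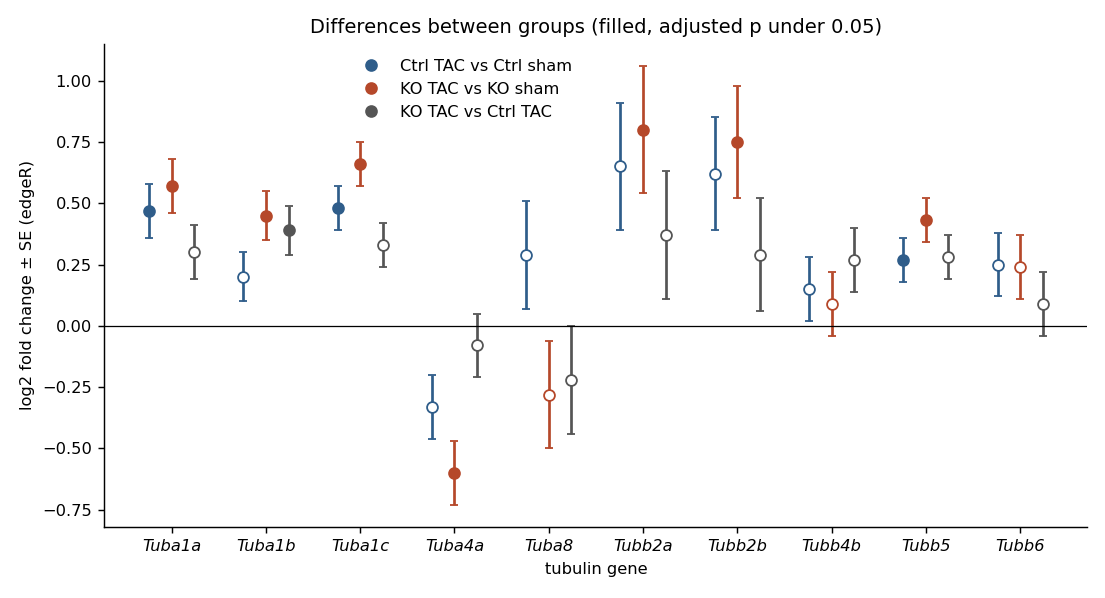
Log2 fold change (edgeR) with its SE as bar, on the y axis, for each of the 10 tubulin genes on the x axis, in Ctrl TAC against Ctrl sham, KO TAC against KO sham and KO TAC against Ctrl TAC, filled where the adjusted p was under 0.05. Of the filled points 3 belong to control hearts, 7 to knockout hearts and 1 to the loaded groups, and Tuba4a lies below 0 in all 3 comparisons.

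The make-up of the alpha-tubulin pool differed between the operations. Each gene was expressed as its share of the summed CPM per kilobase of the 5 alpha-tubulin genes. Because the shares are scores over chosen members, they are given as a description without a test. Tuba4a made up 42.7, 44.6, 43.2 and 42.5% of the pool in Ctrl sham, and 29.5, 36.8, 31.9 and 32.7% in Ctrl TAC. In KO sham its share was 43.2, 44.8, 39.5 and 43.6%, and in KO TAC 28.5, 25.2, 29.0 and 31.8%. In both genotypes all loaded hearts had a lower share than all unloaded hearts, whereas the loaded genotypes overlapped. The group means were 43.2% ± 0.976 (SD, n = 4) in Ctrl sham, 42.8% ± 2.31 in KO sham, 32.7% ± 3.03 in Ctrl TAC and 28.6% ± 2.69 in KO TAC, or 27.6% ± 2.06 (n = 3) in KO TAC 1 to 3.

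The 3 Tuba1 genes, which encode alpha-tubulins known to end in tyrosine, had a higher share under load. Together they made up 36.5, 38.6, 38.8 and 36.6% of the alpha pool in Ctrl sham and 43.6, 39.8, 49.4 and 48.3% in Ctrl TAC. In KO sham they made up 36.7, 36.4, 35.5 and 37.0%, and in KO TAC 55.2, 59.6, 53.0 and 47.6%. No loaded heart overlapped the unloaded hearts of its genotype. KO TAC 1 to 3 all lay above all Ctrl TAC hearts, and the library labelled KO TAC 4 lay within the range of Ctrl TAC. The mean was 45.3% ± 4.46 (SD, n = 4) in Ctrl TAC and 53.8% ± 4.97 in KO TAC, or 55.9% ± 3.34 (n = 3) in KO TAC 1 to 3. Reads moved among the trio would change this sum only through the exon lengths of 1803, 1875 and 2287 bases. Reads dropped for having several matches, or counted in rows outside the trio, would lower it but not Tuba4a. The share of Tuba8 averaged 19.2% in Ctrl sham and 22.0% in Ctrl TAC, and 20.8% in KO sham and 17.5% in KO TAC (16.5% in KO TAC 1 to 3), with overlapping libraries.

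The summed alpha-tubulin message itself moved less than its parts, at 240 ± 17.0 CPM per kilobase (SD, n = 4) in Ctrl sham, 276 ± 32.2 in KO sham, 252 ± 26.7 in Ctrl TAC and 271 ± 41.3 in KO TAC, where the library labelled KO TAC 4 had 301. The summed beta-tubulin message lay between 93.1 and 129 CPM per kilobase in Ctrl sham and between 103 and 143 in Ctrl TAC, and between 105 and 144 in KO sham and 132 and 173 in KO TAC. Within the beta pool, Tubb4b made up 59.0% ± 2.19 in Ctrl sham and 54.4% ± 1.92 in Ctrl TAC, and 61.8% ± 2.64 in KO sham and 54.0% ± 2.22 in KO TAC (53.3% in KO TAC 1 to 3). Its share was lower in all KO TAC than in all KO sham libraries, and overlapped slightly in control hearts. Tubb2a took 11.9% ± 3.45 of the beta pool in Ctrl sham and between 14.9 and 17.4% in Ctrl TAC, with overlap, and 11.9% ± 2.31 in KO sham and 17.2% ± 0.916 in KO TAC, without overlap. The share of Tubb5 stayed near 19.3% in Ctrl sham, Ctrl TAC and KO TAC and was 17.4% in KO sham.

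**Figure D3:**
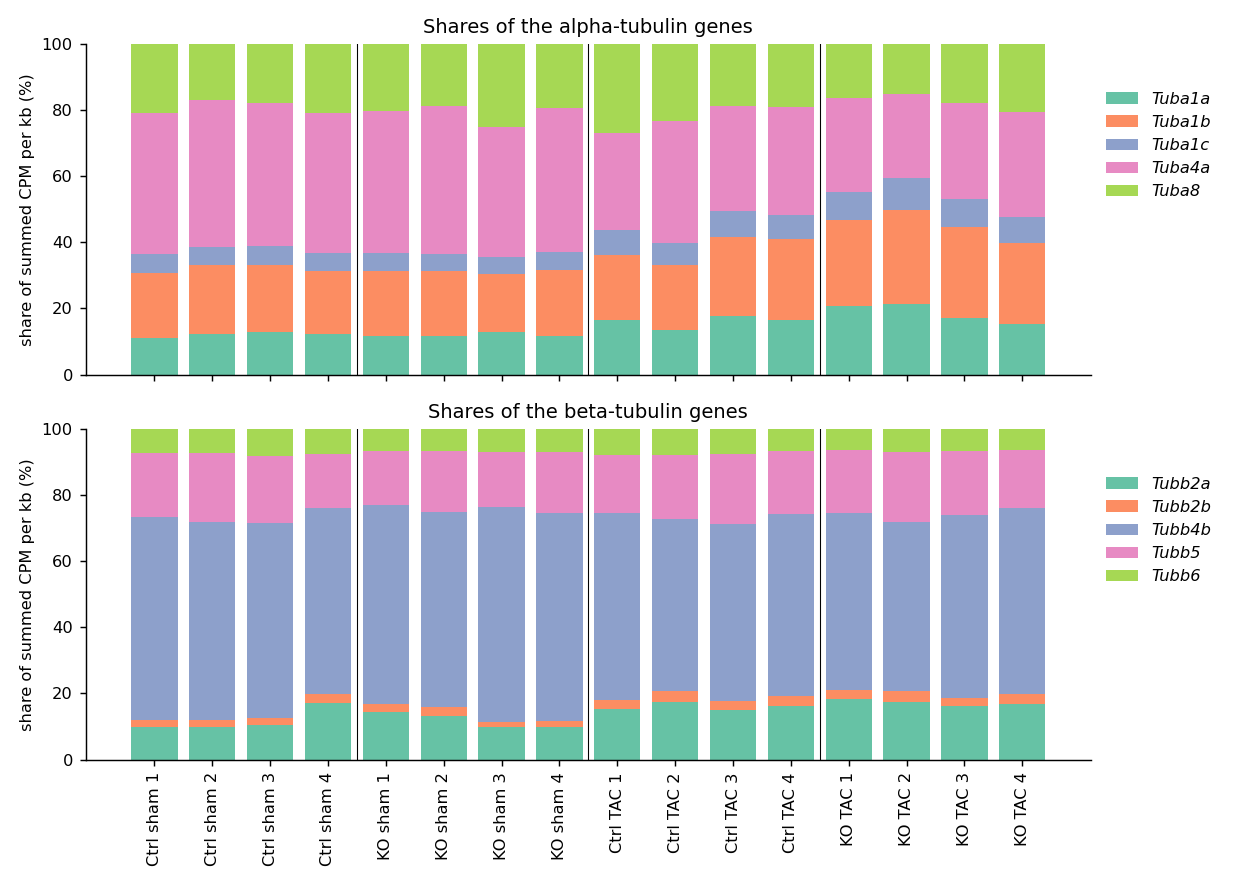
Share (%) of each gene in the summed CPM per kilobase of the alpha-tubulin genes (top) and of the beta-tubulin genes (bottom), stacked for each of the 16 libraries on the x axis. The Tuba4a share is between 39.5 and 44.8% in the 8 sham hearts and between 25.2 and 36.8% in the 8 TAC hearts.

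Part of the spread among sham hearts followed the animal numbers in the labels. The numbers of KO sham 1, 2 and 3 and of Ctrl sham 4 start with 33, unlike those of the other 4 sham hearts, and what such a series stands for is not given in the labels. Tubb2a was between 22.9 and 35.5 CPM in the series of 33 and between 15.0 and 17.9 CPM in the others, 1.78-fold apart on average. Tuba8 was between 116 and 182 CPM against 93.0 to 108 CPM, and Tubb4b between 152 and 194 CPM against 119 to 138 CPM. In these 3 genes the series did not overlap. How many of all genes tested split in this way was not counted. Whether the split is particular to tubulin genes was therefore not tested. Tubb2b, at 5.03 to 8.43 CPM against 3.90 to 5.15 CPM, overlapped. Since 3 of the 4 KO sham hearts but 1 of the 4 Ctrl sham hearts belong to the series of 33, genotype and series cannot be fully told apart in sham hearts.

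A fit with a term for the series of 33 moved these genes most. In Ctrl TAC against Ctrl sham it gave a log2 difference of 0.96 for Tubb2a (adjusted p = 0.000117), 0.88 for Tubb2b (0.000508) and 0.34 for Tubb6 (0.0467), so that 6 of 10 genes were called against 21.1% of all genes tested. In KO TAC against KO sham, where the same fit called 26.4% of all genes, it gave 1.52 for Tubb2a (adjusted p = 1.1e-05), 1.41 for Tubb2b (5e-05) and 0.51 for Tubb6 (0.0191), and Tuba4a had -0.49 (0.0523). The Tuba1 genes moved less. No TAC heart had a number starting with 33, so the term in effect set TAC hearts against sham hearts outside that series. In KO sham only KO sham 4 was outside it, at 16.6 CPM of Tubb2a, the lowest of its group. The knockout values of this fit therefore lean on that library and on the series difference among sham hearts. Loaded hearts were split in another way, with Ctrl TAC 2, 3 and 4 and the library labelled KO TAC 4 in a series starting with 25. Within that series the library labelled KO TAC 4 differed from the mean of the 3 Ctrl TAC hearts by a log2 of 0.44 for Tuba1b and 0.24 for Tuba1a. Outside it KO TAC 1 to 3 differed from Ctrl TAC 1 by 0.40 and 0.18. These values rest on 1 library on one side, so they carry no test. The same values were of opposite sign for Tuba8 (0.32 and -0.78), Tuba4a (0.21 and -0.17), Tubb6 (0.21 and -0.15) and Tubb4b (0.52 and -0.02). In the other members both were above 0. With Cardinal at 4.55 CPM in the library labelled KO TAC 4, the first of each pair may not be a difference between genotypes.

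**Figure D4:**
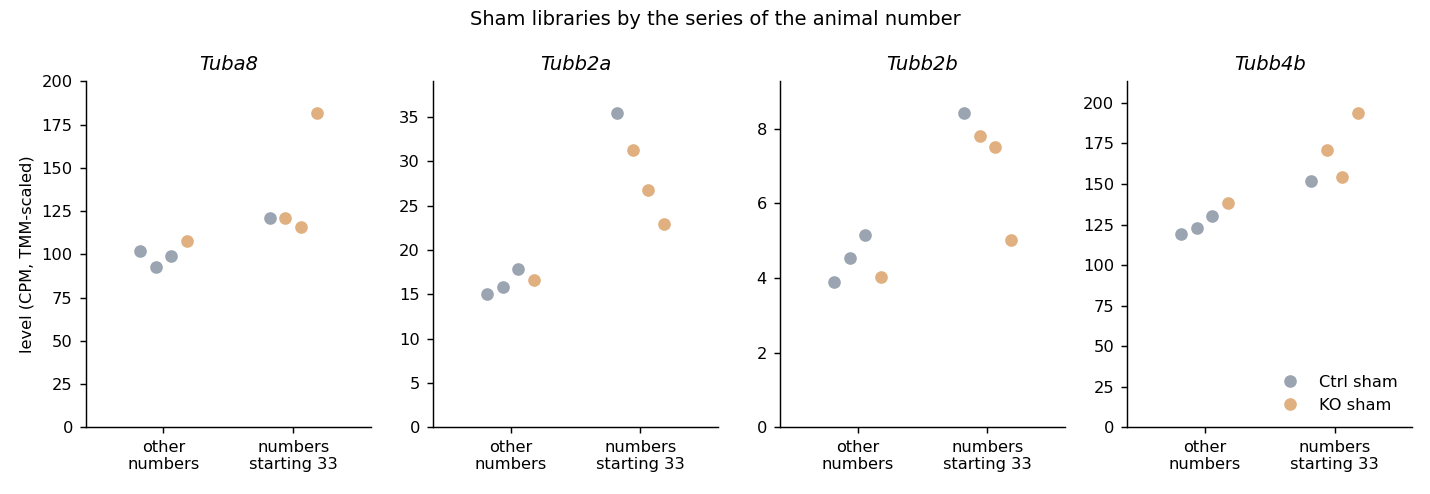
Level (CPM, TMM-scaled, axis from 0) of Tuba8, Tubb2a, Tubb2b and Tubb4b in the 8 sham libraries, split on the x axis by whether the animal number starts with 33, with 1 point per library coloured by genotype. Tubb2a, Tuba8 and Tubb4b do not overlap between the series, whereas Tubb2b does.

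The members also varied together from heart to heart. Over the 16 libraries, Pearson's r of log2 CPM was 0.96 between Tuba1a and Tuba1c, 0.90 between Tuba1b and Tuba1c, and 0.98 between Tubb2a and Tubb2b. After the group means were removed these were 0.78, 0.82 and 0.95. The libraries share their group differences in the first set of values, and near-identical genes may share reads in both. Tuba8 and Tubb4b, whose coding sequences are far apart, had an r of 0.66, and of 0.88 after the group means were removed. Tuba1a and Tuba4a had -0.56 and 0.20, so they went opposite ways between groups but not between hearts of the same group. These are descriptions over 16 hearts, without p-values.

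The 161 other genes of a microtubule list, of which 149 were tested, covered the machinery around the tubulins. In Ctrl TAC against Ctrl sham 42 of 149 passed the test, against 20.0% of all genes tested. Of these 32 were higher and 10 lower, against 10.4% and 9.60% of all genes, and the median log2 difference was 0.07. In KO TAC against KO sham 56 of 149 did, a share near the 34.3% of all genes tested, with 42 higher and 14 lower against 17.8% and 16.5%, and a median of 0.06. When the library labelled KO TAC 4 was left out, 51 of 150 were called, 38 higher and 13 lower, again near the 31.0% of all genes. With library totals in place of TMM scaling the counts were 50 higher and 6 lower in control hearts, and 69 and 6 in knockout hearts, on a scale where the median of all genes moved by 0.111 and 0.158. Between KO TAC and Ctrl TAC 1 gene of 149 was called, against 2.68% of all genes. Between the sham groups edgeR and DESeq2 called 0, with 3 at an unadjusted p under 0.05. In the interaction edgeR called 0 and DESeq2 1, with 10 at an unadjusted p under 0.05. Of 31 transport motors tested, 10 were called in control hearts and 11 in knockout hearts, all of them higher, beside 10.4% and 17.8% of all genes called higher. Of these, Kif5b, the main kinesin heavy chain, rose by 0.67 (adjusted p = 8.62e-06) and 0.78 (adjusted p = 5.05e-07), and Dync1li1, a dynein light intermediate chain, by 0.66 (8.14e-07) and 0.71 (1.12e-07). Without the library labelled KO TAC 4 the knockout values were 0.78 and 0.72, both called. Both were picked for mention after their values were seen.

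The other sublists are counted beside the same shares of all genes tested, 10.4% higher and 9.60% lower in control hearts and 17.8% higher and 16.5% lower in knockout hearts. Without the library labelled KO TAC 4 no sublist changed by more than 1 call in knockout hearts. Of 14 proteins of the microtubule ends tested, 7 were higher in control hearts, and 6 were higher and 2 lower in knockout hearts. Of 21 proteins that bind along the lattice, 6 were higher and 3 lower in control hearts, and 7 and 4 in knockout hearts. Folding and assembly of the dimer, with 21 genes tested, had 3 higher in control hearts, and 3 higher and 3 lower in knockout hearts. The calls in control hearts were Tbca (0.33, adjusted p = 0.00379), a cofactor that holds beta-tubulin, the prefoldin subunit Pfdn1 (0.26, adjusted p = 0.00563) and the chaperonin subunit Cct8 (0.18, adjusted p = 0.0309), named after their values were seen. Severing and depolymerization had 1 of 16 higher and 1 lower in control hearts, and 7 higher and 1 lower in knockout hearts. Of 7 cycling cell markers 6 were higher and 1 lower in knockout hearts, and 1 was higher and 1 lower in control hearts. Their sum overlapped in knockout hearts, at 32.1 to 50.1 CPM in KO sham and 31.5 to 55.2 CPM in KO TAC. Cenpf, the marker that fell, weighed most in the KO sham sum, with means of 27.4 CPM in KO sham and 7.38 CPM in KO TAC. The means of the other 6 were higher in KO TAC, as for Mki67 (6.33 and 14.2 CPM) and Top2a (4.01 and 10.9 CPM). The part of the cycling cell markers was not tested. Nucleation had 2 of 13 lower in control hearts, and 1 higher and 2 lower in knockout hearts.

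Beside the alpha-tubulin tails stood the enzymes that exchange their last residue. Ttl, the ligase that returns tyrosine, was between 28.3 and 29.7 CPM in Ctrl sham and between 30.8 and 34.3 CPM in Ctrl TAC, a rise of 0.20 in log2 (SE 0.05, adjusted p = 0.00779). In KO hearts it went from 28.9 to 29.9 CPM in sham to between 32.7 and 37.2 CPM in TAC, by 0.23 (SE 0.05, adjusted p = 0.00104), and by 0.23 (0.00283) without the library labelled KO TAC 4. Vash1, a vasohibin that removes the tyrosine, had 0.28 (adjusted p = 0.101) in control hearts and rose by 0.33 (adjusted p = 0.0364) in knockout hearts, where the call was lost without the library labelled KO TAC 4 (0.0774). Its partner Svbp had 0.15 (adjusted p = 0.226) and rose by 0.31 (adjusted p = 0.00761), or 0.34 (0.00661) without that library. Vash2, at 0.387 CPM or less, was not called in either genotype, with or without that library.

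Of the acetylation enzymes, Hdac6, a tubulin deacetylase, rose by 0.27 (adjusted p = 0.0118) in control and 0.25 (adjusted p = 0.0104) in knockout hearts, where it was 0.28 and still called without the library labelled KO TAC 4. Atat1, the acetyltransferase, had 0.19 and 0.17 (adjusted p = 0.283 and 0.289), the latter 0.18 without it. Ttll1, a polyglutamylase, went from between 27.0 and 40.5 CPM in Ctrl sham to between 11.5 and 19.1 CPM in Ctrl TAC, and fell by 1.14 in log2 (SE 0.13, adjusted p = 1.72e-05). It fell by 1.34 in knockout hearts (SE 0.13, adjusted p = 1.19e-06), or by 1.28 (1.02e-05) without the library labelled KO TAC 4, and no loaded heart reached the lowest sham heart. Of 15 genes of glutamylation and glycylation tested, 3 were higher and 4 lower in control hearts, and 2 higher and 2 lower in knockout hearts. The shares of all genes called were 20.0% and 34.3%. Ttc5, which triggers decay of tubulin messages, had 0.21 and 0.18 (adjusted p = 0.0696 and 0.0861), the latter 0.18 without the library labelled KO TAC 4 too.

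Among proteins that bind along the microtubule, Map4, the main such protein of cardiomyocytes, rose by 0.17 (adjusted p = 0.0373) in control hearts and by 0.22 (adjusted p = 0.00633) in knockout hearts, or 0.25 (0.00313) without the library labelled KO TAC 4. The call in control hearts was lost without Ctrl sham 1, 2 or 4 or Ctrl TAC 1, 2 or 4, at adjusted p up to 0.114. Map1b, known from growing axons, measured between 8.44 and 12.2 CPM in Ctrl sham, 13.3 and 16.3 CPM in Ctrl TAC, 8.66 and 10.8 CPM in KO sham, and 19.9 and 20.9 CPM in KO TAC. It rose by 0.50 in control hearts (adjusted p = 0.00213) and by 1.04 in knockout hearts (adjusted p = 4.92e-07), the latter 1.04 without the library labelled KO TAC 4 as well. It was the 1 gene of the list called between KO TAC and Ctrl TAC, at 0.45 (SE 0.10, adjusted p = 0.0259), and at 0.45 (adjusted p = 0.0434) without the library labelled KO TAC 4. That call was lost without Ctrl TAC 1 (0.0508), Ctrl TAC 2 (0.0576), Ctrl TAC 3 (0.0764), KO TAC 1 (0.0515), KO TAC 2 (0.0629) or KO TAC 3 (0.0840). Tppp, which bundles microtubules, fell by 0.75 (adjusted p = 0.0152) and 1.15 (adjusted p = 0.000426), and in knockout hearts by 1.14 (0.00179) without the library labelled KO TAC 4. Its 3 highest sham values, 34.7 to 37.3 CPM, all came from the series of 33.

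The largest called rises of the list in control hearts, leaving out genes averaging under 1 in log2 CPM, were those of Kif5c, Map1a and Dclk1. Map1a, a lattice-binding protein, rose by 0.73 (adjusted p = 0.0196) in control and 0.99 (adjusted p = 0.00139) in knockout hearts, the kinase Dclk1 by 0.69 (0.0272) and 0.92 (0.00245), and the motor Kif5c by 0.91 (0.00855) and 0.78 (0.0112). Without the library labelled KO TAC 4 the knockout values were 0.86, 0.85 and 0.80, all called. In all 3 genes Ctrl TAC 2, the library with the most neuron and Schwann cell marker message, was the highest of its group, at 14.7, 6.32 and 4.45 CPM. Without Ctrl TAC 2, the control values of Map1a and Dclk1 were 0.61 (adjusted p = 0.060) and 0.41 (adjusted p = 0.111). Dclk1 was also lost without Ctrl sham 1 (0.0945), Ctrl sham 2 (0.0595) or Ctrl TAC 1 (0.0508), and Map1a without Ctrl sham 1 (0.0681). Tubb3, the neuronal beta-tubulin, was the 1 gene called of 8 other tubulin genes, and it rose by 1.20 in knockout hearts (adjusted p = 0.00159). The rise was 1.09 (adjusted p = 0.00681) in the fit that left out the library labelled KO TAC 4. Its levels there were 0.844 to 1.35 CPM in sham and 1.50 to 3.01 CPM in TAC, whereas the neuron and Schwann cell sum was 8.39 to 10.2 CPM and 3.96 to 5.38 CPM. In control hearts Tubb3 had 0.73 (adjusted p = 0.0595).

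A further pair of genes of the list fell in both genotypes, in 1 of them with a call that rested on single libraries. Fign, a severing enzyme, fell by 1.43 in log2 in control hearts (SE 0.23, adjusted p = 0.000319) and by 0.62 in knockout hearts (SE 0.23, adjusted p = 0.0421). The second call was lost without the library labelled KO TAC 4 (-0.49, adjusted p = 0.125). It was also lost without Ctrl sham 3 (0.0502), KO sham 1 (0.0751), KO sham 2 (0.0521), KO sham 3 (0.0989), KO sham 4 (0.0714), KO TAC 1 (0.0694) or KO TAC 2 (0.109). Pcnt, a centrosome scaffold for nucleation, fell by 0.43 (adjusted p = 0.00102) and 0.68 (adjusted p = 4.60e-06), the latter 0.70 (2.57e-05) without the library labelled KO TAC 4. Tubg1, the gamma-tubulin of the nucleating complex, and Tubb4a were not called, at -0.13 and -0.10 (adjusted p = 0.281 and 0.377) and at 0.39 and -0.21 (adjusted p = 0.180 and 0.446). Their knockout values were -0.08 and -0.32 without the library labelled KO TAC 4.

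**Figure D5:**
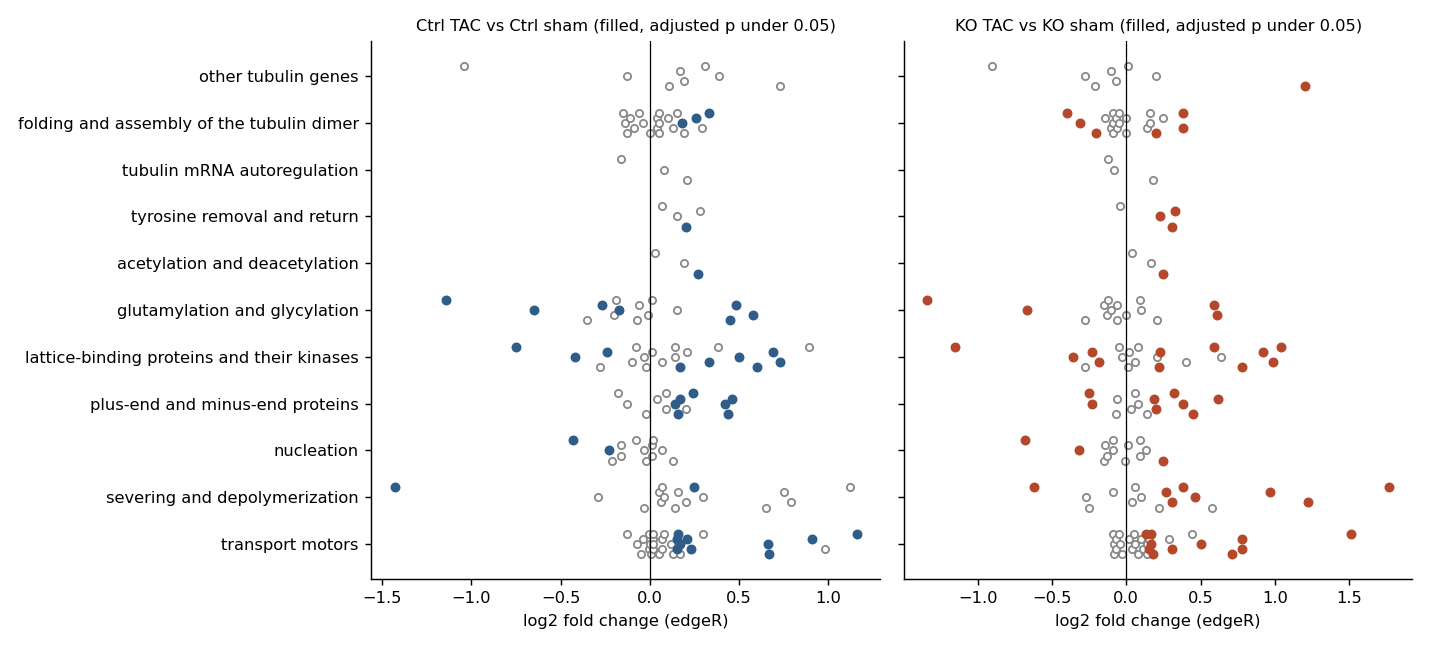
Log2 fold change (edgeR, x axis) of the 149 tested genes of the microtubule list by sublist (y axis), in Ctrl TAC against Ctrl sham (left) and KO TAC against KO sham (right), with 1 point per gene, filled where the adjusted p was under 0.05. There are 42 filled points on the left and 56 on the right, and those of the transport motors all lie above 0.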

How the data were processed

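Poly(A) libraries of 16 mouse hearts (apex) were read in pairs of 150 bases. The authors deposited 1 table of raw counts per gene (Ensembl IDs). Per the submitters' processing notes, tools were cutadapt 2.3, FastQC, HISAT2 2.1.0 and edgeR 3.26.1, with build GRCm38. The counting program, annotation, strand setting and treatment of reads with several matches are not given in the sources used here. Symbols came from GENCODE M21 (GRCm38) for 99.5% of IDs. Each library is a separate animal by its label, with replicate numbers given in order of deposit.

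Counts were fitted with edgeR 4.0.16 in R 4.3.3 (quasi-likelihood, robust, TMM scaling, default expression filter) with 1 mean per group over all 16 libraries. The p-values were adjusted by Benjamini-Hochberg over the 18275 genes tested, with a threshold of 0.05. The code was tested on simulated data. CPM are counts over the scaled library total, and correlations used log2 CPM with a prior count of 2. Tubulin genes, the microtubule list and cell type markers were chosen with earlier results of these data known. All tubulin genes are named. From the list, preset genes and the 3 largest called rises and falls per comparison (average log2 CPM of at least 1) are named, and 5 others, marked in the text, were chosen after their values were seen. Alternatives were DESeq2 1.42.0, RLE and no scaling, other filters, a threshold of 0.01, separate fits, terms for animal number series and leaving out libraries. Coding ends of the other 3 members are not reported here.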

Additional observations from a re-analysis of the deposited data

Results flagged for a closer look

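Dixon's test at the 95% level was applied, on log2 CPM, to each of the 10 tubulin genes in each of the 4 groups of 4 hearts, 40 sets in all, of which chance flags about 5%. In 3 sets 1 library stood away from the other hearts of its group, meaning that its gap to the nearest heart reached 0.829 of the whole range or more. Tuba1a in Ctrl sham 1 was 43.3 CPM against 55.0 to 56.1 CPM in the other Ctrl sham hearts, a gap of 0.924 of the range. Tuba1c in the same library was 28.0 CPM against 30.7 to 31.2 CPM, a gap of 0.829. Tubb2a in Ctrl TAC 3 was 24.7 CPM against 35.1 to 35.9 CPM in the other Ctrl TAC hearts, a gap of 0.939. On CPM without logs, 2 further sets passed, Tubb2a in Ctrl sham 4, at 35.5 CPM against 15.0 to 17.9 CPM with a gap of 0.861, and Tuba8 in KO sham 3, at 182 CPM against 108 to 121 CPM with a gap of 0.830, whereas Tuba1c in Ctrl sham 1 did not. Without Ctrl sham 1, Tuba1a and Tuba1c were still called higher in Ctrl TAC than in Ctrl sham.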

How the results depend on the processing

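No paired analysis was possible because the labels give no replicate numbers shared between groups. Of 1290 alternative values for the 50 tubulin differences, 1208 kept their direction and side of the threshold, 37 lost a call, 20 gained one and 25 changed sign, and the cause was not tested. Tubulin calls in Ctrl TAC against Ctrl sham were 5 with DESeq2 and 6 with a term for the series of 33. They were 2 to 5 when 1 library was left out. Over all genes these fits called 4098, 3862 and 2694 to 3719. In KO TAC against Ctrl TAC the tubulin calls were 0 with library totals, no filter, a threshold of 0.01 or a term for the series of 25. They were also 0 with a fit to those 8 libraries, or without Ctrl TAC 2 and the library labelled KO TAC 4. Over all genes these settings called, in the same order, 385, 285, 19, 12, 154 and 109. The tubulin calls there were 2 with at least 10 counts per library or a term for the series of 33. They were 3 with DESeq2 and 0 to 3 when 1 library was left out. Over all genes the calls were 602, 573, 1183 and 63 to 733. Across all these settings between 15438 and 36333 genes were tested. For the microtubule list of 149 tested genes, the 0.01 threshold gave 26 and 37 calls in control and knockout hearts. Of all 18275 genes it called 2076 and 4222. The term for 25 gave 26 list calls in control hearts, against 2479 of 18275 genes. Between the loaded groups the list had 5 calls with DESeq2 and 2 with at least 10 counts or the term for 33. It had 0 with 0.01, the term for 25 or both libraries left out, and 0 to 5 when 1 was left out. The counts over all genes for these settings are those given above. The interaction had 1 list call with DESeq2, against 132 of 18275 genes.

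No sign change was in a called value. In Ctrl TAC against Ctrl sham Vash2 was -0.16 with the term for 33, -0.01 without both libraries and -0.38 to 0.96 when 1 was left out. In knockout hearts Atat1 was -0.03 with the term for 33, Tubg1 0.06 with library totals, and Vash2 0.13 with library totals, 0.03 with the term for 25 or without both libraries, and -0.39 to 0.57 when 1 was left out. Tuba4a between the loaded groups was 0.02 with the term for 25 and -0.19 to 0.01 when 1 was left out. Between sham groups the term for 33 gave -0.19 for Tubb2a, -0.24 for Tubb2b and -0.07 for Tubb6. In the interaction Tubb4b was 0.10 with the term for 33 and -0.15 to 0.03 when 1 was left out. Tubb6 was 0.05 with library totals, 0.01 without a filter, 0.16 with the term for 33, 0.02 without both libraries and -0.11 to 0.08 when 1 was left out. Leaving out 1 library gave -0.21 to 0.30 for Tubb2a and -0.14 to 0.27 for Tubb2b. Library totals called 3400 genes higher and 935 lower in control hearts, against 1898 and 1754, and 5922 and 1468 in knockout hearts, against 3253 and 3018.

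With the length of the longest transcript, shares of Tuba1a were 10.5% (Ctrl sham), 10.4% (KO sham) and 14.3% (Ctrl TAC), and of Tuba1b 18.6% and 17.9% in the sham groups. Tuba4a had 48.8% in Ctrl sham and 37.8% in Ctrl TAC, and 48.4% in KO sham and 33.3% in KO TAC, so the lower share under load stayed. Tuba8 had 16.6% (Ctrl sham), Tubb2a 9.41% (KO sham), 12.8% and 13.8% (Ctrl TAC and KO TAC), and Tubb2b 2.43% and 2.46%. Tubb4b had 61.2% (Ctrl sham), 57.0% and 56.8% (TAC groups), and Tubb6 8.33% and 8.38% in the Ctrl groups and 7.50% and 7.40% in the KO groups. With 4 hearts per group and shared reads among near-identical genes, small differences between single Tuba1 or Tubb2 genes cannot be resolved.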

Other observations

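For each tubulin gene, the other gene whose log2 CPM followed it most closely over the 16 hearts was taken among 10651 well-expressed genes. These are descriptions without p-values, given as Pearson's r and r after the group means were removed. Tuba1a was closest to Tpm3 (0.958 and 0.919), a tropomyosin of the actin cytoskeleton. Tuba1c was closest to Spcs3 (0.971 and 0.786), a signal peptidase subunit, and Tubb5 to Prc1 (0.956 and 0.887), a protein that bundles microtubules in dividing cells. Tuba4a was closest to 5830417I10Rik (0.908 and 0.778), Tuba8 to Naa15 (0.903 and 0.908) and Tubb6 to Cd44 (0.892 and 0.860), a hyaluronan receptor. Tubb2a and Tubb2b had the same closest gene, Fam129b (0.954 and 0.916 for Tubb2a, 0.965 and 0.928 for Tubb2b). Next for Tubb2a came Rangap1 (0.934), B4galt5 (0.929), Akap2 (0.918) and Hspa1l (0.916).

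For 2 members the closest gene was a pseudogene: Gm14150 for Tuba1b (0.929 and 0.832) and Tubb4b-ps1 for Tubb4b (0.858 and 0.879). The mean of Gm14150 went from 5.86 CPM (Ctrl sham) to 8.68 CPM (KO TAC), beside 89.7 and 135 CPM for Tuba1b. Tubb4b-ps1 averaged 5.11 and 6.11 CPM, beside 131 and 175 CPM for Tubb4b. Whether these rows count reads of the parent genes was not tested.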
